A study of Mus musculus with 12 samples.

Results

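The untreated baseline of a mouse testis study was described here from its 4 arrays of wild-type testes at postnatal day 7. They were taken by their sample titles and are 4 of 12 arrays in the series. Each array held RNA of 3 testes pooled from 3 animals, 1 testis from each, so that a value is the level of a pool and the spread between arrays is the spread between pools of whole testes. The mice were wild type, on a C57BL/6, 129S5, SvEvBrd hybrid background, received no treatment named in the labels, and carried none of the knockout alleles of the other arrays. The labels number the pools wild type 3, 4, 5 and 6, and values are given in that order throughout. No other group was compared with them, so that the values are a description and no difference was tested.

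In the first postnatal week the seminiferous cords of the mouse testis hold dividing Sertoli cells, which nurse the germ cells, and germ cells that have resumed division as spermatogonia. Peritubular myoid cells wrap the cords, and Leydig cells, which make androgens, lie between them with blood vessels, fibroblasts and macrophages. Meiosis has not yet reached its later stages at this age, and haploid spermatids appear weeks later.

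Signals came from a 3'-biased Affymetrix array with 45101 probe sets, 64 of them controls, and are in linear units that the authors' software set to the same trimmed mean of 500.003 on each array. Of the rest, 34945 probe sets carried exactly 1 gene symbol, and they stood for 18193 genes, each read from the probe set whose mean over the 4 arrays was highest. A gene was called above background when its signal exceeded 49.9 on all 4 arrays, the 40th percentile of the non-control values. By that rule 11956 of 18193 genes, or 65.7%, were above background. Each count of list members above background given below stands beside this share. Listed genes with no probe set of that symbol alone are not in those counts. The 27 probe sets for Bacillus control transcripts gave at most 45.0 on any array. Signals of different probe sets are not amounts that can be set against each other, and a percentile below is the position of a signal among the 18193 genes and not of a transcript level. In pooled whole tissue, fewer cells of a type and less RNA per cell cannot be told apart.

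The 4 pools gave similar profiles, and some of the brightest signals differed in order from wild type 3 to 6. Across the 11956 genes, log2 signals of 2 pools correlated with r between 0.980, for wild type 3 and 6, and 0.989, for wild type 3 and 4. These are values across genes on arrays scaled to the same mean, and genes are not independent replicates. Array medians were 80.5 to 90.7. Some of the brightest signals differed more than these medians. Across genes, though, the median spread between pools was smaller in brighter groups, as described below. The spiked cre control averaged 33470, 38384, 42851 and 50852, and Actb, which encodes cytoplasmic beta-actin, gave 26562, 34345, 39910.2 and 46562. The lowest of both was in wild type 3 and the highest in wild type 6. After quantile normalization Actb gave 30870, 36025, 37638 and 39973, so that its range shrank while its order stayed. The signal ratio of the 3' to the 5' control probe sets was 1.32 to 1.43 for Actb and 0.744 to 0.818 for Gapdh. For the pyruvate carboxylase control, Pcx, it was 5.94, 5.36, 4.27 and 3.08, and for the transferrin receptor control, Tfrc, 3.95, 3.37, 2.54 and 2.35. Wild type 3 had the highest ratio of both. The 18S rRNA control also differed between pools, with 3' signals of 1569, 1519, 5836 and 239, highest in wild type 5 and lowest in 6. Its ratios were 2.18, 2.34, 1.96 and 2.36. Whether it bears on other differences between the pools was not tested.

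All 6 markers chosen to check the tissue were above background in every pool. Ddx4, a germ-cell RNA helicase also called VASA, gave signals of 4059, 4408, 4329 and 3752, with a mean of 4137 ± 297 (SD, n = 4) and a position at the 94.4th percentile. Its range between pools was 1.17-fold, where a range is the highest over the lowest signal after 14.7, the 20th percentile of the signals, is added to each. Kit, the receptor tyrosine kinase of differentiating spermatogonia that Leydig and mast cells also carry, gave 1591, 1598, 1953 and 1815, with a mean of 1739 ± 176. Wild type 5 and 6 were above wild type 3 and 4 for Kit, and a further Kit probe set, with 383, 407, 503 and 514, split the pools the same way.

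Amh, the Sertoli-cell hormone that makes the Mullerian ducts regress, gave 808, 488, 510.1 and 567, with a mean of 593 ± 147. Wild type 3 stood above the other pools, which lay within 488 to 567. Sox9, the transcription factor of Sertoli-cell fate, gave 1519.8, 1735, 1919.7 and 1863, with a mean of 1759 ± 177. Its wild type 3 was the lowest pool by this probe set, but a further Sox9 probe set gave 1636, 1617, 1592 and 1501, with wild type 3 the highest. The order of the pools for Sox9 therefore depended on the probe set, and both spans were small, at 1.26-fold and 1.09-fold.

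Cyp17a1, the enzyme that turns progestins into androgens in Leydig cells, gave 3445, 4035, 2711 and 2280.4, with a mean of 3118 ± 778. It was highest in wild type 4 and lowest in 6, and its 1.76-fold range was the widest of the 6 markers. Acta2, the smooth-muscle actin of myoid cells and of vessel walls, gave 21498, 22312, 23230.2 and 24898, with a mean of 22985 ± 1459 at the 99.7th percentile. Its order across the pools was that of the spiked cre control, and after quantile normalization the values were 24281, 22649, 22558 and 22857, with wild type 3 no longer lowest but highest.

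**Figure D1:**
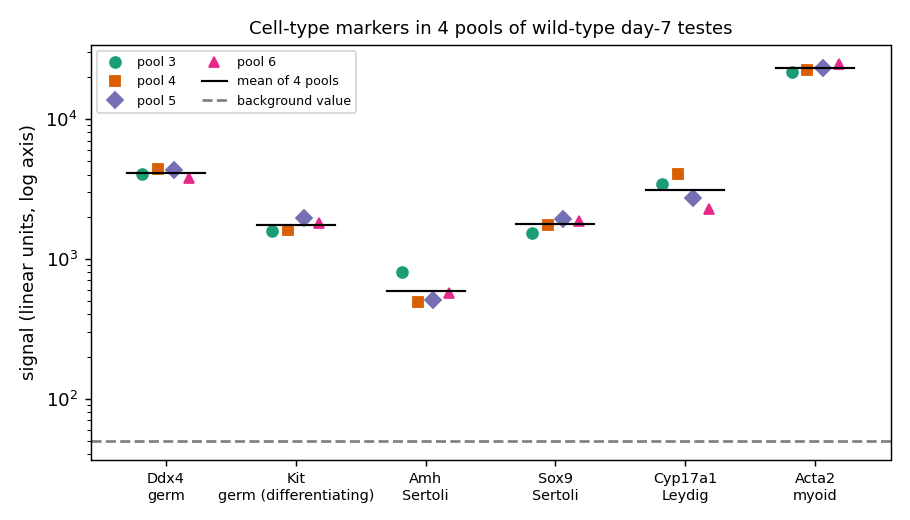
Signal of the 6 cell-type markers (linear units on a log axis) in each of the 4 pools, with the mean as a black bar and the background value of 49.9 as a dashed line. Every point lies above the line. The range between pools is 1.76-fold for Cyp17a1 and 1.17-fold for Ddx4.

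Signal position and promoter composition moved together across genes. RefSeq promoter windows of 300 bases on GRCm38.p6, from 250 before to 50 after the start of transcription, were matched by symbol for 14452 of the 18193 genes. For each the CpG ratio was computed, the count of CG dinucleotides over the count that the window's C and G content would give by chance pairing. The highest ratio was taken where a gene had several windows. Its median was 0.268 in the dimmest of 5 equal groups of genes by mean signal and 0.455, 0.743, 0.823 and 0.849 in the brighter groups in turn. A ratio over 0.6 was found in 17.9% of the dimmest group and in 86.8% of the brightest. The TATA box TATAAA, searched on both strands, was in 19.3% of the dimmest group, 8.41% of the brightest and 11.5% of the 14452 genes. Of all 27025 genes with a window, named on the array or not, 15.7% held it. These are descriptions across genes, and a match is not a bound site.

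The windows of 4 genes show the range of that composition, which is why they are printed, up to the start of transcription and 5′ to 3′. In all but Amhr2, capitals mark every CG.
Ddx4 (GRCm38.p6, chr13:112652311-112652560, minus strand): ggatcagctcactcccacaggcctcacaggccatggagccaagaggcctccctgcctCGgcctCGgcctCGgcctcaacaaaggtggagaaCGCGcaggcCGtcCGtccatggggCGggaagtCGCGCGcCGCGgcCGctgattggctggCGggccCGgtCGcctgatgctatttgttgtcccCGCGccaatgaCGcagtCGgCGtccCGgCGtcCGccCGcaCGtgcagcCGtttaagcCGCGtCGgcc
Amhr2 (GRCm38.p6, chr15:102445117-102445366, plus strand): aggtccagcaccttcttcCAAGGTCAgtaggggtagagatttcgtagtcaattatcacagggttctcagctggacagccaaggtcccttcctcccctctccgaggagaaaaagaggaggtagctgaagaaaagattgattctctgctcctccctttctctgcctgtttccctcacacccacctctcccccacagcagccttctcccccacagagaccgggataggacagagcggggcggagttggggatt
Acta2 (GRCm38.p6, chr19:34255374-34255623, minus strand): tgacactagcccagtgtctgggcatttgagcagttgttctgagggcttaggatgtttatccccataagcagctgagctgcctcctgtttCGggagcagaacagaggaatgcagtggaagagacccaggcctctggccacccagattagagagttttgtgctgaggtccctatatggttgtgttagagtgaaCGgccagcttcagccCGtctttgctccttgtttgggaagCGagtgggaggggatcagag
Prm1 (GRCm38.p6, chr16:10796824-10797073, minus strand): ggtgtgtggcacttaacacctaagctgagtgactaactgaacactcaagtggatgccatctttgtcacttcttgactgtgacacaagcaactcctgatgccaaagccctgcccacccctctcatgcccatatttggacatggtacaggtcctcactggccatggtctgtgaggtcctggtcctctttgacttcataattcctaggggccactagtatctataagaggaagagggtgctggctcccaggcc
The Ddx4 stretch holds 31 CG and its window has a CpG ratio of 0.978. The Acta2 stretch holds 4, with a ratio of 0.270, although the signal was at the 99.7th percentile, so that a gene near the top of the signals can have a CpG-poor promoter. The stretch of Prm1, the protamine that packs sperm DNA, holds 0, with a ratio of 0.0487, and its signals were 7.03, 7.53, 7.49 and 8.46, all under background. In Amhr2, the receptor for AMH, the capitals mark CAAGGTCA, a motif bound by SF-1, the product of Nr5a1. The Amhr2 window has a CpG ratio of 0.219. The motif, searched on both strands, was in 1.76% of all 27025 genes with a window and in 1.58% of the 14452 named genes. It was in 2.22% of the dimmest group and 1.16% of the brightest, and in 0 of 7 Leydig and 0 of 19 Sertoli genes. Amhr2 gave signals of 13170.4, 15758, 17574 and 18280.3.

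The lists differed in CpG content. Over all 14452 genes the median CpG ratio was 0.700, and over those above background 0.797. It was 0.940 for 19 proliferation genes, 0.740 for 16 germ-cell genes and 0.716 for 19 meiotic genes, the last 2 near the value of all genes. It was lower, 0.607 and 0.599, for 13 genes of undifferentiated and 10 of differentiating spermatogonia. It was 0.174 for 17 spermatid genes, 0.221 for 18 leukocyte genes, 0.303 for 7 stromal genes, 0.307 for 7 Leydig genes, 0.344 for 11 myoid genes and 0.545 for 19 Sertoli genes. Both the stromal and the spermatid list had low ratios, while 11 of 11 stromal genes and 2 of 22 spermatid genes were above background.

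**Figure D2:**
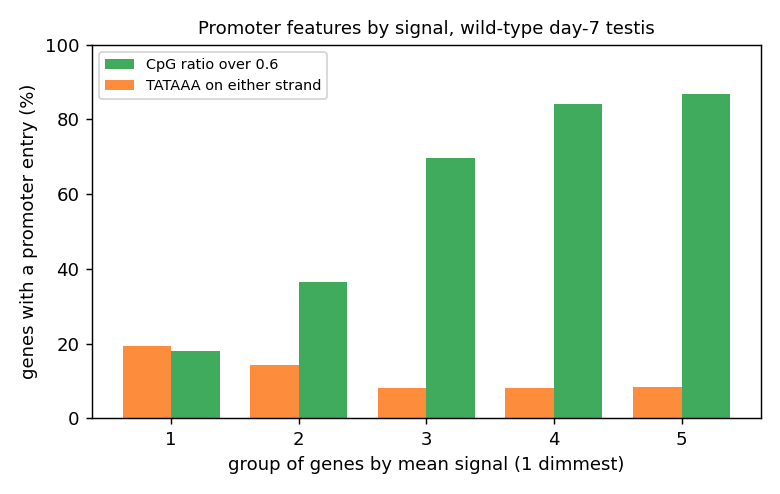
Share of genes with a promoter window (percent) whose CpG ratio exceeded 0.6, in green, and whose window held TATAAA on either strand, in orange, by 5 equal groups of genes in order of mean signal. The green share is 17.9% in the dimmest group and 86.8% in the brightest, and the orange share is 19.3% and 8.41%.

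Genes of germ cells at any stage were above background in 22 of 22 cases, beside 65.7% of all named genes. Dazl, an RNA-binding protein of germ cells, gave 11250.5, 11647, 12939.9 and 13287, and Mael, of the piRNA pathway that silences transposons, 6475, 6137, 6459.7 and 6274. Piwil2, a PIWI protein of that pathway, gave 1740, 1635, 1832 and 1798, while Piwil4, a PIWI protein of fetal prospermatogonia, gave 118, 137, 113 and 88.3 and was the dimmest of the list. Tex101, a germ-cell surface protein, gave 1360.3, 1794, 2429 and 2301, and Usp26, an X-linked germ-cell gene, 261, 342, 429 and 505. Both were lowest in wild type 3, and 11 of the 22 genes had their lowest signal there, beside 28.3% of all genes above background. The median deviation of the list from its 4-pool mean was -0.05, -0.06, 0.09 and 0.05 (log2). By that measure wild type 4 was about as low as wild type 3. None of the 22 had a 2-fold range. Of the 11956 genes above background 372, or 3.11%, had one.

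Markers of undifferentiated spermatogonia, the pool that holds the stem cells, were above background in 18 of 21 cases. Zbtb16, the factor PLZF that maintains this pool, gave 1859, 1962, 1936 and 2070.1, with a mean of 1957 ± 87.1. Gfra1, the receptor for GDNF, gave 368, 296, 411 and 347, and its co-receptor Ret 282, 275, 239 and 178. Neurog3, which marks cells on the way to differentiation, gave 303, 352, 375 and 372. Eomes, Lhx1 and Pax7 were not above background in every pool. Eomes gave 76.5, 21.7, 80.3 and 57.0, Lhx1 60.6, 58.9, 49.3 and 54.4 and Pax7 31.3, 30.2, 48.8 and 40.9, with Lhx1 just under the background value in wild type 5 alone and Pax7 under it in all 4 pools. The median deviation of the list from its 4-pool mean was between -0.03 and 0.04 (log2) in the pools.

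Markers of differentiating spermatogonia were above background in 11 of 11 cases. Stra8, which retinoic acid induces before meiosis, gave 3693, 4184, 5540.2 and 4991, with a mean of 4602 ± 823. Sohlh1 and Sohlh2, the paired transcription factors of spermatogonial differentiation, gave 1125, 1138, 1200.1 and 1233 and 885, 1104, 1012 and 1200.3 in these intact animals. Rhox13 and Esx1, both X-linked homeobox genes, were the most variable. Rhox13 gave 1025, 1821, 2012 and 1681, and wild type 3 lay below the other pools. Esx1 gave 403, 499, 798 and 939, the only 2-fold range of the list at 2.28-fold, with wild type 5 and 6 above 3 and 4. Of the 11 genes 9 were lowest in wild type 3, where 28.3% of all 11956 genes were lowest. The list's median deviation was -0.19, -0.04, 0.11 and 0.08 (log2), a range of 0.30 that was 0.14 without wild type 3.

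Meiotic prophase genes were above background in 18 of 20 cases. Syce2 and Sycp3, which encode parts of the synaptonemal complex that pairs chromosomes, gave 5020.1, 5307, 6254 and 6055 and 2691, 3234, 3589 and 3065. Sycp1, the transverse filament of that complex, gave 1626, 1682, 2992 and 2145, and wild type 5 stood above the rest. Dmc1, the meiotic recombinase, gave 408, 466, 714 and 604. Spo11, which makes the meiotic DNA breaks, gave 53.5, 66.8, 69.8 and 26 and was under background in wild type 6. Msh4, of the crossover machinery, gave 50.3, 53.3, 41 and 50.4 and straddled the background value. Prdm9, which places the breaks, gave 90.1, 115, 55.6 and 107. Of the 18 genes above background 12 were lowest in wild type 3 and 11 highest in wild type 5, where 28.3% and 23.7% of all genes were lowest and highest. The list's median deviation was -0.20, -0.08, 0.15 and 0.10 (log2), a pattern like that of the differentiating list. Wild type 3 also had the highest Pcx and Tfrc 3' to 5' ratios, 5.94 and 3.95, and the lowest cre control. Their part in these deviations was not tested. Quantile normalization left the meiotic deviations at -0.21, -0.06, 0.15 and 0.10.

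Spermatid and late spermatocyte genes were above background in 2 of 22 cases, Zpbp with 147, 125, 169 and 128 and Spaca1 with 82.2, 132, 141 and 105, both genes of the acrosome. Tnp2, a transition protein of condensing spermatids, gave 3.32, 7.51, 2.79 and 6.16, and Pgk2, the testis-specific glycolytic kinase, 13.1, 13.4, 1.82 and 34.9. Ldhc, the testis-specific lactate dehydrogenase, gave 29.3, 10.5, 46.3 and 56.4 and passed the background value in wild type 6 alone. Set beside the list of meiotic prophase, the count above background went from 18 of 20 to 2 of 22.

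Sertoli-cell genes were above background in 28 of 29 cases and included several of the brightest signals of the array. Clu, a secreted chaperone, Aard, Ctsl, a cathepsin, and the cystatin Cst12 had means of 34168 ± 4520.5, 26898 ± 2754, 26229 ± 3371 and 24503 ± 2857. Clu was the only cell-type marker of the lists among the 25 genes with the highest mean signal, which held 18 ribosomal protein genes and Eef1a1, Tpt1, Actb, Tmsb10, Sparc, Clu and ND5. Dmrt1, a factor of testis fate also found in spermatogonia, gave 11421, 12127, 12239 and 11600.1, and Wt1, a Sertoli and gonadal factor, 3824, 3685, 3200.2 and 3749. Fshr, the receptor for follicle-stimulating hormone, gave 647, 642, 629 and 623, with a mean of 636 ± 11, with the lowest CV of the list, 1.74%. Erbb4, a neuregulin receptor, was under background in every pool, with 2.85, 8.89, 31.5 and 24.4.

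A 2-fold range was found for 4 of the 28 Sertoli genes above background, beside 3.11% of all genes above background. Hsd17b1, which reduces estrone, gave 1361, 1062, 874 and 507, highest in wild type 3 and lowest in 6. Ptgds, a prostaglandin synthase, gave 1596, 1101, 838 and 706, and its further probe set 403, 404, 279 and 184, lowest in wild type 6 by both. Krt18, a keratin of immature Sertoli cells and other epithelia, gave 332, 143, 152 and 169, with wild type 3 highest and the other pools within 143 to 169. Rhox5, an androgen-regulated homeobox gene, gave 190.2, 281, 329 and 461, lowest in wild type 3 and highest in 6. Rhox5 thus ran against the other 3 genes, and the list's median deviation lay between -0.06 and 0.05 (log2) in the pools. Ptgds and Hsd17b1 are also made outside Sertoli cells.

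Leydig-cell genes were above background in 10 of 12 cases, and 6 further listed genes had no probe set with that symbol alone. Hsd3b1, the 3-beta-hydroxysteroid dehydrogenase of steroid synthesis, gave 5825, 5285, 5324 and 5046. Cyp11a1, which makes pregnenolone from cholesterol, gave 2426, 2423, 1705 and 2156, and Star, which carries cholesterol into mitochondria, 595, 873, 513 and 849.6. Hsd17b3, which makes testosterone and is expressed in fetal Sertoli and adult Leydig cells, gave 2009, 1644, 1594 and 1256. Nr5a1, the factor SF-1, gave 2576, 2124, 1986 and 1739. Mc2r, the ACTH receptor, gave 35.5, 47.0, 40.4 and 51.9, with wild type 6 alone over background, and Sult1e1, an adult Leydig sulfotransferase, gave 2.11, 6.50, 2.85 and 5.77, all under background. Of the 10 genes above background 6 were highest in wild type 3 and 4 in wild type 4, with none highest in 5 or 6. Of all genes above background 28.2% were highest in wild type 3, 19.2% in 4, 23.7% in 5 and 28.8% in 6. The list's median deviation was 0.16, 0.10, -0.14 and -0.09 (log2). Cyp17a1 showed this split, while Star was high in wild type 4 and 6 and low in 3 and 5, so that the members did not move as a block.

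Cholesterol synthesis genes, which feed steroid and membrane production, were above background in 17 of 17 cases. Hmgcs1, the first committed synthase, gave 9967, 9010, 9368 and 9038, and Sqle, squalene epoxidase, 2122, 2160.3, 2437 and 2037. None had a 2-fold range, and 7 of 17 were highest in wild type 3 and 7 lowest in wild type 4, against 28.2% and 20.7% of all genes.

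Myoid genes were above background in 13 of 14 cases, and stromal genes in 11 of 11. Myh11, smooth-muscle myosin, gave 2228, 2618, 2595 and 2605, and Tagln, the actin-binding protein SM22, 3573, 3818, 3601 and 3780.4. Myh11 was low in wild type 3 beside 3 close pools. Synpo2 gave 126, 47.3, 53.4 and 121, under background in wild type 4 alone. Col3a1, a fibrillar collagen, had a mean of 25630.1 ± 2008, and Dcn, a collagen-binding proteoglycan, gave 12686, 13456, 13428 and 14183. Igf1, a growth factor of the interstitium, gave 6468, 7763, 4509 and 5541 and had the widest stromal range at 1.72-fold, highest in wild type 4. Neither list held a gene above background with a 2-fold range.

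Endothelial genes were above background in 17 of 18 cases, at dimmer signals. Sox18, a vascular transcription factor, gave 1113, 1258, 1022 and 1088, and Pecam1, the junction protein CD31, 242, 226, 257 and 286. Cdh5, the cadherin of endothelial junctions, gave 935, 519, 429.6 and 419.6, a 2.19-fold range with wild type 3 highest, but a dimmer Cdh5 probe set gave 78.4, 62.6, 109 and 122 with wild type 6 highest. The order for Cdh5 therefore depended on the probe set. Tie1, an endothelial receptor, gave 127, 76.2, 29.1 and 119.7 and was under background in wild type 5. The list's median deviation was within -0.05 and -0.01 (log2) in every pool.

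Macrophage and other leukocyte genes were above background in 15 of 23 cases, beside 65.7% of all named genes. Csf1r, the macrophage growth factor receptor, gave 858, 809, 949.9 and 927, and C1qa, a complement chain made by tissue macrophages, 423, 411, 479.6 and 616. Tyrobp, a signalling adaptor of myeloid cells, gave 297, 219, 279 and 419.8. Ptprc, the pan-leukocyte antigen CD45, gave 64.1, 58.7, 56.8 and 117, with wild type 6 far from 3 close pools. T-cell Cd3e and Cd3g and B-cell Cd79a were not above background in every pool, with 18, 11.7, 23.0 and 54.8, 15.0, 25.5, 47.3 and 37.8 and 2.21, 6.35, 21.1 and 18.1. Of the 15 genes 9 were lowest in wild type 4 and 8 highest in wild type 6, against 20.7% and 28.8% of all genes. The list's median deviation was -0.04, -0.23, 0.01 and 0.28 (log2), and its summed signal over all 23 genes was 4949, 4223, 5212 and 6247. Without wild type 4 the range between pools was 0.27 in place of 0.50, and without wild type 6 it was 0.24.

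Mast-cell genes were above background in 5 of 8 cases, beside 65.7% of all named genes, and 4 of these 5 had a 2-fold range. Of all genes above background 3.11% had one. The share was 10.5% for genes with means of 56.1 to 132 and 9.20% for those of 132 to 230. Cpa3, carboxypeptidase A of mast-cell granules, gave 148, 299, 89.3 and 162, with wild type 4 highest. The tryptases Tpsab1 and Tpsb2 gave 121, 287, 169 and 227 and 65.2, 129.5, 88.0 and 175, and the chymase Cma1 142, 191, 76.1 and 131. Cpa3, Tpsab1 and Cma1 were highest in wild type 4, Tpsb2 in wild type 6, and Mcpt4, a further protease not above background in every pool, gave 88.4, 214, 38 and 97.1, again highest in 4. Fcer1a and Ms4a2, both chains of the IgE receptor, were under background in all pools. Hdc, which makes histamine, gave 246, 289, 316 and 223, highest in wild type 5, but a further Hdc probe set gave 112, 147, 149 and 153, highest in 6. The median deviation was -0.11, 0.52, -0.25 and 0.02 (log2), the highest single-pool value among the lists. Without wild type 4 the range between pools was 0.47 in place of 0.77. Mast cells lie in the testis capsule and interstitium in small numbers, and which of the 3 testes of a pool gave the signal cannot be seen.

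Red-cell and platelet genes were above background in 7 of 16 cases, beside 65.7% of all named genes. A further 6 listed genes had no probe set with that symbol alone. Of these, 3 stood only in probe sets with several symbols, which were left out. Alas2, the heme synthesis enzyme of red-cell precursors, gave 622, 241, 378 and 275, and the beta-globin gene Hbb-b2 240.3, 130, 139 and 70.9, both highest in wild type 3 and both with a 2-fold range. A further Hbb-b2 probe set gave 107, 86.9, 94.9 and 138, highest in wild type 6, so that the order for Hbb-b2 depended on the probe set. Hba-a2, an alpha-globin, gave 99.2, 95.7, 48.0 and 46.5, with wild type 3 and 4 over background and 5 and 6 under it. Pf4, a platelet chemokine also made by macrophages, gave 938, 926, 1084 and 1151 and was lowest in wild type 4. So was the further Hbb-b2 probe set, while Hba-a2 and the first Hbb-b2 probe set were lowest in wild type 6.

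Nerve genes differed between pools by the probe set taken for each gene, and less so by further probe sets. S100b, a calcium-binding protein of Schwann cells, gave 671, 612, 475 and 389, Mbp, myelin basic protein, 419, 354, 261 and 183, and Sox10, the Schwann-cell factor, 152, 161, 134 and 79.9. All 3 were lowest in wild type 6 by these probe sets, and the median deviation was 0.35, 0.27, -0.14 and -0.59 (log2). The range of 0.93, the widest of the lists, was 0.49 without wild type 6, and 0.54 when all probe sets of each gene were averaged. The mast-cell range was wider under both, at 0.72 and 0.77, and also without the probe sets that may match several transcripts, at 0.99. A further Mbp probe set gave 165, 182, 164 and 162, also lowest in wild type 6 but within 1.11-fold. A further S100b probe set gave 433, 464, 353 and 434, lowest in wild type 5, and a further Sox10 probe set 84.8, 56.4, 93.3 and 70.7, lowest in wild type 4. Nefl, a neurofilament, was not above background in every pool, with 53.2, 39.7, 30.2 and 55.3. The low wild type 6 was thus not shared by the further probe sets of S100b and Sox10.

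**Figure D3:**
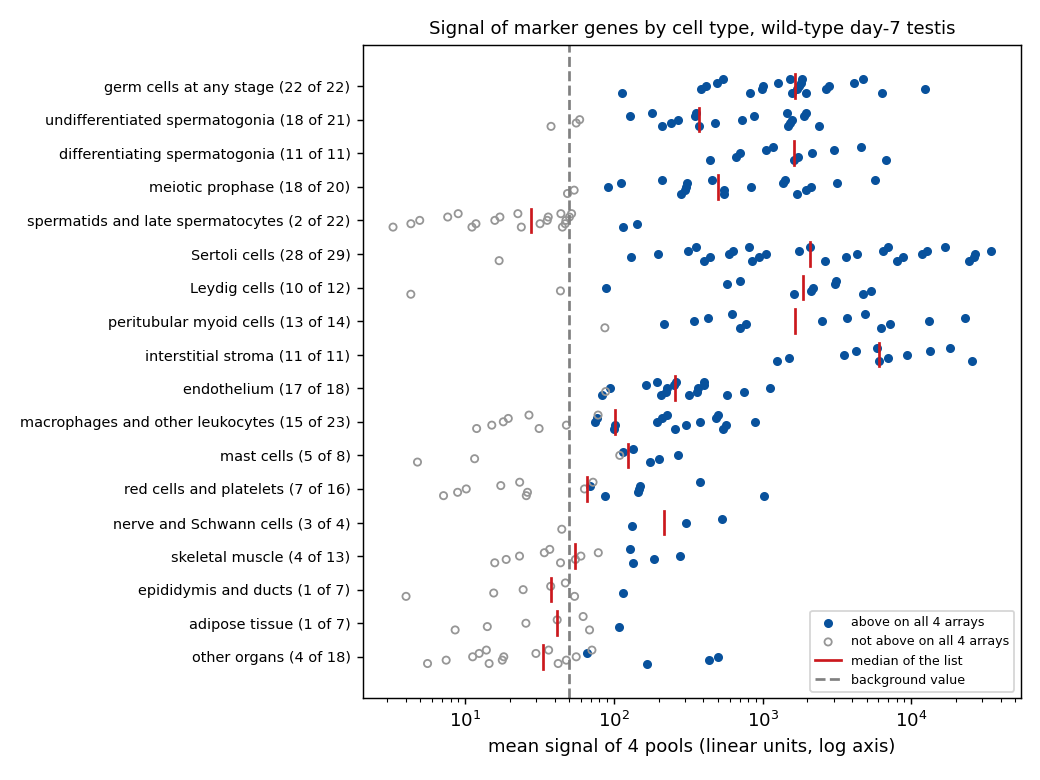
Mean signal over the 4 pools (linear units, log axis) of every measured gene of 18 cell-type lists. Filled points are genes above the background value of 49.9 (dashed line) on all 4 arrays, open points are the others, and red bars are list medians. Labels give the count above background, 22 of 22 for germ cells, 2 of 22 for spermatids and 4 of 18 for other organs.

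Genes known from other tissues were read as a check of the background value. Genes of other organs were above background in 4 of 18 cases, which were Ins2, Myh6, Cela2a and Slc17a7. Ins2, an insulin gene, gave 489, 410.5, 506 and 609, and Myh6, a heart myosin, 459, 488, 427 and 362, within 1.47-fold and 1.34-fold between pools. The others of the list, such as Alb with 42.2, 42.2, 34.7 and 26.3, were not above background in every pool. Epididymal and duct genes were above in 1 of 7 cases, Pax8 with 122, 107, 122 and 107, adipose genes in 1 of 7, Fabp4 with 95.6, 183, 82.2 and 73.4, and skeletal muscle genes in 4 of 13. Without wild type 3 these counts were 3 of 7 epididymal and 7 of 13 muscle genes, and without wild type 5, 3 of 7 adipose genes were above. Adipoq, the fat-cell hormone, gave 60.7, 39.4, 38.5 and 27.6. Mesothelial genes, of the layer that covers the testis, were above in 6 of 7 cases, with Bnc1, which germ cells also express, at 1281, 1457, 1413 and 1158. Signals above background thus occurred for some genes known from other organs, with a mean of up to 504, that of Ins2.

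Genes of ovarian supporting cells were above background in 6 of 6 cases at low signals, beside 65.7% of all named genes. The count was 4 with the background value at the 50th percentile, and also at the upper quartile of the other-organ genes. Their median signal was 143, and some genes of other organs, such as Ins2, passed the background value as well. Foxl2, the factor of granulosa cells, gave 141, 157, 99.6 and 179, and Rspo1, a WNT agonist of ovary determination, 206, 220.3, 236 and 258. Fst, which binds activin, gave 342, 287, 198 and 201, highest in wild type 3. A further Fst probe set gave 97.1, 131, 152 and 191, highest in wild type 6. Irx3 and Bmp2 had 2-fold ranges, with 65.3, 111, 160.5 and 113 and 113, 56.0, 106 and 162, highest in wild type 5 and 6 respectively.

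Niche ligands, signals to germ cells or to other cells of the testis, were above background in 13 of 18 cases. That is 72.2%, near the 65.7% of all named genes. Kitl, the ligand of Kit, gave 7562, 7051, 6535 and 6676, and Gdnf, the stem-cell factor that binds Gfra1, 594, 389, 414 and 365. Dhh, the Sertoli hedgehog ligand, gave 7066, 6876, 6309 and 5663, Cxcl12, a chemokine for spermatogonia, 3987, 3615, 3102 and 2842, and Wnt5a 1333, 908, 942 and 789.7. Of the 13 genes 9 were highest in wild type 3, where 28.2% of all genes were highest, and the median deviation was 0.16, 0.05, -0.09 and -0.18 (log2). Without wild type 3 the range between pools was 0.15 in place of 0.34, and with the mean of all probe sets it was 0.19. A further Dhh probe set gave 552, 720, 796 and 870, the reverse order, and a further Kitl probe set 2624, 2539, 2990 and 2901, highest in wild type 5. Those of Cxcl12 and Wnt5a were highest in wild type 3 as well. Csf1, the macrophage growth factor, went the other way, with 234, 335, 316 and 434, highest in wild type 6 by this and by a further probe set, which also had the highest macrophage list. Fgf2, Fgf8, Fgf9, Lif and Nrg1 were not above background in every pool.

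In the hormone and activin system 11 of 14 genes were above background, beside 65.7% of all named genes. Inha, the inhibin alpha chain, gave 13566, 12784, 11797 and 13150, and the beta chains Inhbb and Inhba 8349.5, 8674, 7692 and 7431 and 733, 408, 629 and 525. Thra and Thrb, both thyroid hormone receptors, differed in that Thra gave 3496, 3028, 2787 and 3045 and Thrb 38.2, 9.77, 46.8 and 50.7, which passed background in wild type 6 alone. Esr1, the estrogen receptor alpha, gave 817, 849.6, 957 and 1065, and Esr2 21.4, 44.1, 2.65 and 46.7, all under background.

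Retinoic acid pathway genes, which control entry into meiosis, were above background in 14 of 18 cases, beside 65.7% of all named genes. Aldh1a1, a retinaldehyde dehydrogenase of Sertoli cells, gave 16199.7, 18684, 18537 and 18841, and Aldh1a2, a further member of that family, 1363, 1618, 984 and 613. Aldh1a2 had the only 2-fold range of the list at 2.60-fold, with wild type 6 lowest. Cyp26b1, which degrades retinoic acid, gave 3024, 3412, 3368 and 3488, and Cyp26a1, of the same family, 109, 168, 164 and 172, lowest in wild type 3. Rara and Rarg, the receptors, gave 328, 385, 421 and 380.4 and 467, 592, 611 and 506, while Rarb was under background in all pools with 19.5, 43.2, 23.9 and 24.1. Crabp1, a carrier of retinoic acid in spermatogonia, gave 2573, 2853, 3304 and 3315, the lowest in wild type 3 as for most differentiating genes.

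Proliferation genes were above background in 22 of 22 cases, with a median CV of 8.14%, against 11.1% for all genes above background. Their median signal was 3105, and all genes with means of 2123 to 3649 had a median CV of 7.74%. Pcna, the replication clamp, gave 11048, 12054, 13186 and 13193, Mcm5, of the replicative helicase, 4987, 4851, 4818 and 4922, and Mki67, the antigen Ki-67, 2589.7, 2284, 2326 and 2303. Mcm5 had the lowest CV of the list, 1.54%. Tyms, thymidylate synthase, was the exception in signal, with 56.8, 78.3, 53.2 and 110.4. The basement membrane list was above in 18 of 18 cases. Col4a1, a collagen IV chain, gave 9809.6, 8434, 8106 and 9066, and Lamb1, a laminin chain, 6029, 4536, 4627 and 4728, with wild type 3 apart from 3 close pools. By a gap rule of Dixon at the 95% level for 4 values, 594 of 11956 genes, or 4.97%, had 1 pool apart from the other 3, about the 5% that such a rule gives by chance, and 5 of the 18 basement membrane genes did. The 5 were apart in different pools and directions, in wild type 3 for Lamb1, 4 for Lama4, 5 for Lamc1 and 6 for Col18a1 and Col4a2.

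Junction genes were above background in 13 of 13 cases. Gja1, the gap junction protein connexin 43, gave 13689, 13858, 13168 and 12865, and Cldn11, the claudin of the later blood-testis barrier, 4368, 4304, 3903 and 4775. Ocln, occludin, gave 1765, 1712, 1787 and 1801 and spanned 1.05-fold.

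Imprinted genes were above background in 12 of 15 cases, beside 65.7% of all named genes. Plagl1, a growth-restricting zinc finger factor, gave 14438, 15404, 13451 and 12218, Dlk1, a ligand of immature Leydig and other cells, 10268, 9060.4, 7834 and 7413, and Igf2, the fetal growth factor, 6034, 5582, 5148 and 5384. Meg3, the noncoding RNA next to Dlk1, gave 3537, 2459.6, 1615 and 1821, a 2.18-fold range, and a further Meg3 probe set gave 2988, 2382, 1942 and 2084 in the same order of pools. Phlda2, expressed from the maternal allele, gave 132, 122, 167 and 297, highest in wild type 6. Peg10 and Snrpn gave 42.2, 28.5, 32.0 and 43.3 and 17.8, 11.2, 13.2 and 52.2 and were not above background in every pool.

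Y-linked genes were above background in 5 of 6 cases, beside 65.7% of all named genes. Eif2s3y, needed for spermatogonial proliferation, gave 1823, 1723, 1637 and 1332, Kdm5d, a histone demethylase, 553, 474, 352 and 240.4, and Uty 348, 339, 362 and 278. Sry, the testis-determining gene, gave 4.86, 70.1, 37.4 and 59.2 and was not above background in every pool. Kdm5d was lowest in wild type 6 with a 2.23-fold range, and 3 of the 5 genes were lowest there, against 28.6% of all genes. One of these, Uty, had a further probe set with 257, 323, 338 and 319, lowest in wild type 3. The median deviation was 0.07, 0.04, 0.13 and -0.24 (log2), and the range of 0.36 was 0.088 without wild type 6 and 0.17 with the mean of all probe sets.

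Genes that respond to handling were measured too. Immediate early genes were above background in 13 of 14 cases, with Egr1 at 2474, 2627, 2471 and 3061 and Fos at 423, 548, 689 and 284. Fos had a 2-fold range, 2.36-fold, with wild type 5 highest and 6 lowest, while Egr1 was highest in wild type 6, so that these early factors did not follow 1 order. Heat shock genes were above in 8 of 8 cases, and Hspa1b, an inducible HSP70, gave 1929.8, 1871, 1915 and 1811, within 1.07-fold. Among housekeeping genes, 8 of 8 above, Hprt, a purine salvage enzyme, gave 4010.4, 4055, 4104 and 3977, within 1.03-fold.

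**Figure D4:**
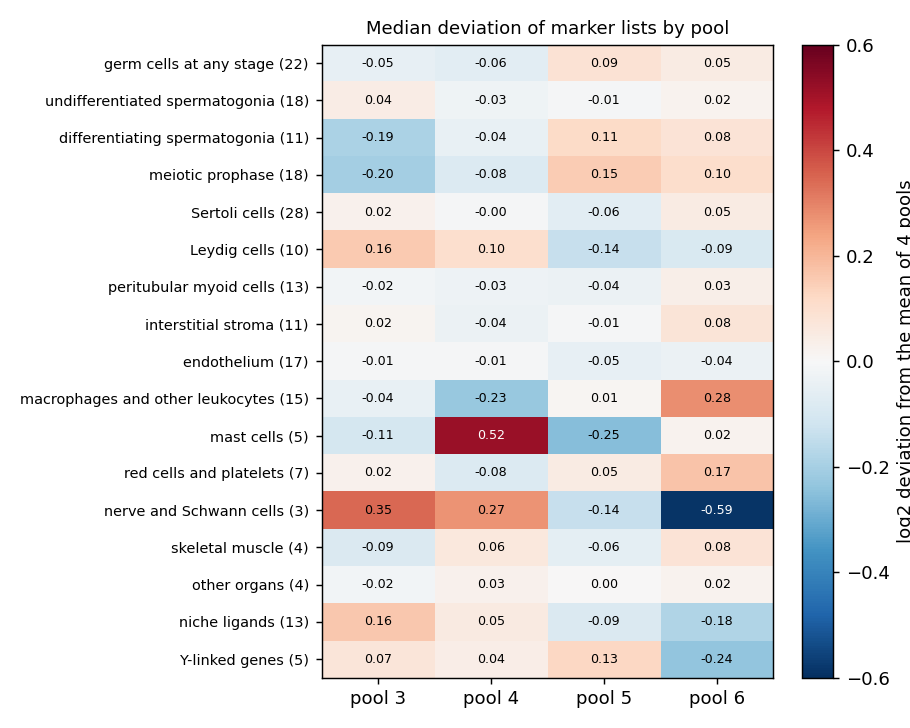
Median log2 deviation from the mean of the 4 pools, by list and pool, over the members above background, whose number stands after the name. Red is above and blue below the mean. The nerve list is at -0.59 in wild type 6, the mast-cell list at 0.52 in wild type 4, and the meiotic list at -0.20 in wild type 3.

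The median spread between pools was smaller in brighter groups of genes. The median SD of log2 signals over the 11956 genes was 0.16, the median CV 11.1% and the median range between the highest and lowest pool 1.27-fold. In 10 equal groups of genes by mean signal the median SD was 0.27 in the dimmest and 0.10 in the brightest, and 126 and 2 genes had a 2-fold range there. Within the brightest group, the 25 genes with the highest mean signals had SDs of 0.09, for Rps20, to 0.34, for Actb. The count of 372 such genes was 196 without wild type 3 and 191 without wild type 6. Between pairs of pools, 57 genes differed 2-fold for wild type 3 and 4 and 171 for wild type 3 and 6. Of the 594 genes with 1 pool apart, 217 had wild type 6 apart, 172 wild type 3, 118 wild type 5 and 87 wild type 4. The most divergent pair was thus wild type 3 and 6, which were also the pools most often apart. These pools also had the lowest and the highest cre and Actb signals. Whether the divergence is linked to that order was not tested.

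**Figure D5:**
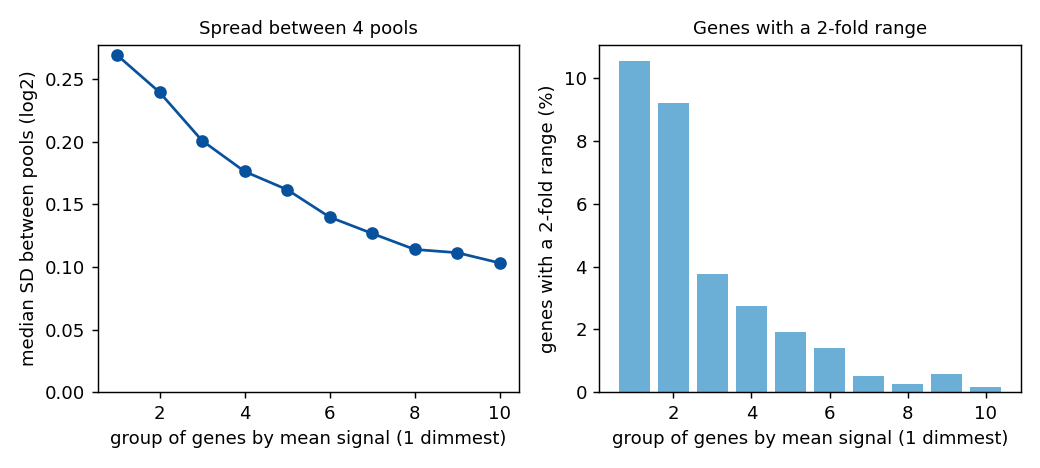
Left, median SD of log2 signals between the 4 pools in 10 equal groups of genes by mean signal, 0.27 in the dimmest and 0.10 in the brightest. Right, percent of genes with a 2-fold range in the same groups, with 126 genes in the dimmest and 2 in the brightest.

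Among 9900 genes with a mean signal over 200, 163 had a 2-fold range. Snrnp40, a splicing factor, gave 4375, 3811, 2203 and 814, but a further probe set gave 1997, 2110 and 2234 in wild type 3, 4 and 5 and 2130 in 6, within 1.12-fold. Rpgrip1, a protein of the photoreceptor cilium, gave 2825, 6848, 1178 and 2936. Mapre2, a microtubule end-binding protein, gave 2069, 2289.5, 2207 and 529, with wild type 6 apart from 3 close pools, while a further probe set gave 1078, 1226, 911 and 1032, lowest in wild type 5. Malat1, a nuclear noncoding RNA, gave 548, 524, 146 and 151, with wild type 3 and 4 above 5 and 6, and by a further probe set 299, 271, 263 and 302, within 1.14-fold and without that split. Tmem18 and Plbd1 split the same pools in the other direction, with 206, 246, 775 and 786 and 420.3, 329, 1047 and 1188. Zap70, a T-cell kinase, gave 165, 156, 506 and 601, with wild type 5 and 6 higher, while T-cell Cd3e and Cd3g were not above background in every pool. AA467197, a transcript also called Nmes1, had the largest SD, with 75.6, 211, 460.1 and 57.7.

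At the other end, Rhobtb3 gave 2409, 2396, 2404 and 2407, the narrowest spread at a CV of 0.241%. Apex1, a DNA repair nuclease, gave 5544, 5537, 5538 and 5511, and Smarce1, of a chromatin remodelling complex, 3238, 3253, 3228 and 3238. Cops3, of the COP9 signalosome, gave 4754, 4802, 4809.7 and 4766. These were picked from 9900 genes for their small spread, so that the figures are descriptions of the extreme and not estimates of the error of these genes.

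Further probe sets of a gene shared the order of its pools in a minority of genes. Of 5495 genes with another probe set above background, 29.1% had the same highest pool in it and 30.01% the same lowest, where an equal share for each of the 4 pools would be 25%. For genes with a 2-fold range the shares were 40 of 104, or 38.5%, and 41 of 104, or 39.4%. In 12 of the 104 the other probe set had a 2-fold range too. The order of pools for a single gene was thus often not shared between its probe sets, and Kit, Ptgds and Meg3 above were genes where at least the lowest pool was shared.

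The share of genes above background was 58.9% to 69.7% over the autosomes and the X chromosome, with chromosome 6 lowest and X highest. The share of the genes above background with a 2-fold range was 2.33% to 4.64% over the same chromosomes, with chromosome 9 lowest, X highest and chromosome 3, at 4.48%, next to X.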

How the data were processed

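The authors deposited signal intensity values. The submitters' processing notes name the tools GCOS and MAS5, with versions and settings not given in the sources. RNA was kept in RNAlater, purified on RNeasy columns with DNase, and labelled from an oligo(dT) primer, per the labels' protocols. No detection calls were used. The deposited intensity was taken as it is, with no further normalization, and log2 was taken after adding 14.7. Probe sets with several symbols (932) or none (9160) and the 64 controls were left out. Symbols came from the platform's annotation, and 34741 of 34945 had their Entrez identifier in the RefSeq table of GRCm38.p6.

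Python 3.11.15, numpy 2.4.6 and pandas 2.3.3 were used, tested on simulated data. Named were the 6 markers, members of 32 lists of cell types and pathways, the 25 highest signals, and, at a mean over 200, the 20 largest and 10 smallest SDs. Members and lists were chosen with earlier results of these data known. Alternatives were other background values, offsets, scalings, probe set rules and leaving out each array. The number of arrays limits the precision.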

Additional observations from a re-analysis of the deposited data

Results flagged for a closer look

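Of the 393 genes named here that were above background, 24 had 1 pool whose gap to the other 3 exceeded Dixon's 95% value, and so did 1 of 29 lists. That is 6.11% of the genes, beside the 4.97% of all genes above background, and chance flags about 1 in 20 groups. No explanation was tested for any of them.

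Wild type 3 stood apart on the low side for Aldh1a1 at 16200, Cst12 at 20272, Cyp26a1 at 109, Meioc, a regulator of meiotic entry, at 353, Myh11 at 2228 and Nupr1l at 79.6. After quantile normalization Cst12 gave 22528, 26271, 24779 and 24542, still lowest there, while Aldh1a1 gave 17815, 18798, 18073 and 17815 and Gnas, below, 20344, 18535, 18342 and 20511, with no pool alone at that end. It stood apart on the high side for Lamb1 at 6029 and Mki67 at 2590. For the retinoic acid list its deviation of -0.074 (log2) was apart from the other pools.

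Wild type 4 stood apart on the low side for Bub1b, a spindle checkpoint kinase, at 1249, Lama4 at 379 and Tdrd5, of the piRNA pathway, at 449. It was high for Cdh2, the cadherin that joins Sertoli and germ cells, at 1837. Wild type 5 was high for B2m, of the class I antigen complex, at 4655, and low for Lamc1 at 1110 and Tmem87a at 651.

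Wild type 6 stood apart on the high side for Col18a1 at 5153, Col4a2 at 4704, Gnas, a G-protein subunit, at 22178, Nr0b1, a nuclear receptor of the gonad, at 2383 and Ptprc at 117. It was low for Dnajb1, a heat shock cochaperone, at 2088, Mapre2 at 529, Mcm4, of the replicative helicase, at 3439 and Robo4, an endothelial receptor, at 262. A further probe set had the same extreme pool for Bub1b, Cdh2, Col18a1, Lamb1 and Mcm4, and another for B2m, Dnajb1, Lamc1 and Mapre2. The gap can be large against a narrow span, as for Lamc1, whose pools lay within 1.05-fold, and large in size, as for Mapre2, whose pools spanned 4.24-fold.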

How the results depend on the processing

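The count of genes above background stayed within 1.5 times under all 12 alternatives, and so did the median SD under 14 and the count with 1 pool apart under 10. The count with a 2-fold range, 372, was 640 with the background value at the 30th percentile, 210 at the 50th, 1243 when 2 of 4 arrays sufficed, 164 with the log offset at the 40th percentile, 244 with the mean of all probe sets and 2271 for 1.5-fold. It was 191 to 280 with 1 pool left out. With the 30th percentile, 2 adipose, 2 epididymal and 7 skeletal muscle genes were above background. With the 50th, 1 spermatid, 3 mast-cell, 4 red-cell and 0 adipose genes were. With 2 of 4 arrays, 7 spermatid, 3 adipose, 3 epididymal, 9 skeletal muscle and 7 other-organ genes were, and with the mean of all probe sets 0 adipose genes.

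The range between pools was 0.51 for niche ligands with arrays scaled to the same median, and 0.19 with the mean of all probe sets, where that of the Y-linked genes was 0.17. With 1 pool left out the ranges were 0.14 to 0.35 for differentiating spermatogonia, 0.15 to 0.41 for niche ligands, 0.24 to 0.61 for macrophages, 0.49 to 0.90 for nerve and 0.088 to 0.35 for Y-linked genes. Counts above background with 1 pool left out were 1 to 3 for adipose, 1 to 3 for epididymal and 4 to 7 for skeletal muscle genes. Mean signals of named genes moved by over 1 SD in 216 of 3134 cases. Whether 1 pool is apart was not run on 3 arrays. The cause of these shifts was not tested. No paired analysis was possible because the values come from 1 group with no test. Dim genes are limited by signal over background.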
